A study of Homo sapiens with 8 samples.

Results

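Enzymes that make nonessential amino acids and move their nitrogen were followed across 4 groups of arrays. The set of 9 genes was given as a list: ASNS, CTH, CBS, PCK2, ALDH18A1, PYCR1, GPT2, GOT1 and BCAT1. Of these, 5 (ASNS, CTH, CBS, PCK2 and PYCR1) have a named row on the array, 1 each, and all 5 passed the filter on low levels. They are 5 of 12734 genes tested. The other 4, ALDH18A1, GPT2, GOT1 and BCAT1, have no row with their name in the platform annotation used here, so no level is given for them. That says nothing about their level in these cells.

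RNA was measured on Affymetrix gene arrays in a pair of established human cell lines, MM1.S and NCI-H929, both derived from multiple myeloma, a cancer of plasma cells. The groups were MM1.S with a short hairpin against SIRT6 (shSIRT6), MM1.S with a scramble hairpin (shSCR), NCI-H929 with shSIRT6 and NCI-H929 with shSCR, with 2 arrays in each and 8 in all. SIRT6 is an NAD-dependent deacetylase of chromatin, and the study's title links its loss to the splicing machinery. All groups share a hairpin construct and a glutamine-supplemented RPMI-1640 medium with fetal bovine serum. No group without a construct was analysed here. The labels give no hairpin sequence and do not say whether the cells were clones. Nor do they say that 2 arrays of a group stand for separate cultures, so each p-value is set against a spread between arrays that may be only technical.

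Asparagine, cysteine, proline and alanine can be made by human cells, and plasma cells, which secrete antibody, use them for protein synthesis. ASNS (asparagine synthetase) makes asparagine from aspartate and glutamine. CBS (cystathionine beta-synthase) joins homocysteine to serine, and CTH (cystathionine gamma-lyase) splits the product to cysteine, the pathway called transsulfuration. ALDH18A1 and PYCR1 are the first and the last enzyme on the route from glutamate to proline. GPT2, GOT1 and BCAT1 are transaminases for alanine, aspartate and the branched-chain amino acids, and PCK2, the mitochondrial phosphoenolpyruvate carboxykinase, turns oxaloacetate, which glutamine can supply, to phosphoenolpyruvate. Several of these genes are known targets of ATF4, the transcription factor of the amino acid response, which binds composite C/EBP-ATF elements.

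The ASNS promoter is a known site of such an element, so the promoters of 3 genes that were lower with shSIRT6 in MM1.S are shown, with matches to the composite element in capitals. The letters searched were TGATGNAA, where N is any base, on both strands in the 250 bases before each start of RefSeq transcripts (GRCh38.p14). Of all 35116 such windows 3.14% hold a match. In the first of 2 ASNS windows (chr7:97872409-97872658, minus strand) the match TGATGAAA lies at chr7:97872469-97872476, beginning 68 bases before the start, and the second holds none. The windows of CTH (chr1:70411018-70411267, plus strand) and PCK2 (chr14:24094061-24094310, plus strand, of which the first 110 bases are printed, up to the first annotated start) hold no match.
ASNS: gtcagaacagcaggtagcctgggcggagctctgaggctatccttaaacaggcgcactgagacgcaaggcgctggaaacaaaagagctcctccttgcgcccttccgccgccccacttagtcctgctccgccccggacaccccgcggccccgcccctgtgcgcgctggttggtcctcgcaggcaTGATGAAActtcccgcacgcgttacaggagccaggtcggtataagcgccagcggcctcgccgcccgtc
CTH: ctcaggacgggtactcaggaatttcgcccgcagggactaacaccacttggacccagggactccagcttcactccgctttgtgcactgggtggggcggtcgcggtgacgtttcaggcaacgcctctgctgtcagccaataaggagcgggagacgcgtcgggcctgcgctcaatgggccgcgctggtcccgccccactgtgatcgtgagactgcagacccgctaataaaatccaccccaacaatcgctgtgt
PCK2: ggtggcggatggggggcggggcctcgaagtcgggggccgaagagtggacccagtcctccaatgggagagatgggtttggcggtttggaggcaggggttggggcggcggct

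Windows were found for 7 of the 9 genes, 14 in all, and not for PYCR1 and GPT2. Matches stood also in 1 window of GOT1 (99430815 to 99430822 on chromosome 10, as TTGCATCA, the other strand) and in 1 of 5 windows of BCAT1 (24949142 to 24949149 on chromosome 12, as TGATGCAA), 2 genes with no level here. None of the 3 windows of CBS and not the window of ALDH18A1 held one. The cyclic AMP response element TGACGTCA, which 1.65% of all windows hold, was in none of the 14. A match is a description of letters, and binding was not measured.

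The identity of the arrays was checked on a few genes. SIRT6, the hairpin's target, was at a log2 level of 5.60 and 5.78 with shSIRT6 in MM1.S, against 6.09 and 5.88 with shSCR. In NCI-H929 it was at 6.25 and 6.31 with shSIRT6, against 6.53 and 6.97 with shSCR. Both shSIRT6 arrays lay below both shSCR arrays in each line, but neither difference passed the test (limma, Benjamini-Hochberg adjusted p = 0.355 in MM1.S and 0.276 in NCI-H929), so the construct labels are checked only weakly. Without shSCR replicate 2 of NCI-H929 the SIRT6 difference there was -0.25 in place of -0.47, and without shSCR replicate 1 of MM1.S it was -0.19 in place of -0.30. FGFR3 and NSD2, the translocated genes of NCI-H929, were higher there than in MM1.S, and MAF was higher in MM1.S, with either construct. These are differences of level only: in NCI-H929 the group means were 8.075 and 8.255 for MAF and 6.295 and 6.675 for FGFR3 (shSIRT6 and shSCR). Of 10 plasma cell markers 7 have a named row and all 7 passed the filter, with a mean log2 level between 9.37 and 9.69 on every array. POU2AF1 was the lowest of them, with group means from 5.25 to 5.415. Passing the filter does not mark a cell type, as all 4 T and NK cell markers and 4 of 5 myeloid markers with a row also passed.

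With shSIRT6 in MM1.S, 4 of the 5 measured enzymes fell: ASNS, CTH, PCK2 and CBS. The falls ran from 2.48-fold for ASNS to 1.64-fold for CBS. PYCR1 did not pass. The arrays of the constructs did not overlap for the 4, as for 26.3% of all genes, which were lower on both shSIRT6 arrays. Over all genes tested 1.12% were called lower in this comparison, at an adjusted p below 0.05, and 0.204% higher. The median difference of the 5 enzymes was -0.985 on the log2 scale, against 0.005 for all genes tested. The enzymes and the lists below were chosen with earlier results of these data known, so such shares and medians describe them and test no set. In bulk RNA, less of a transcript per cell and fewer cells that carry it cannot be told apart.

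**Figure D1:**
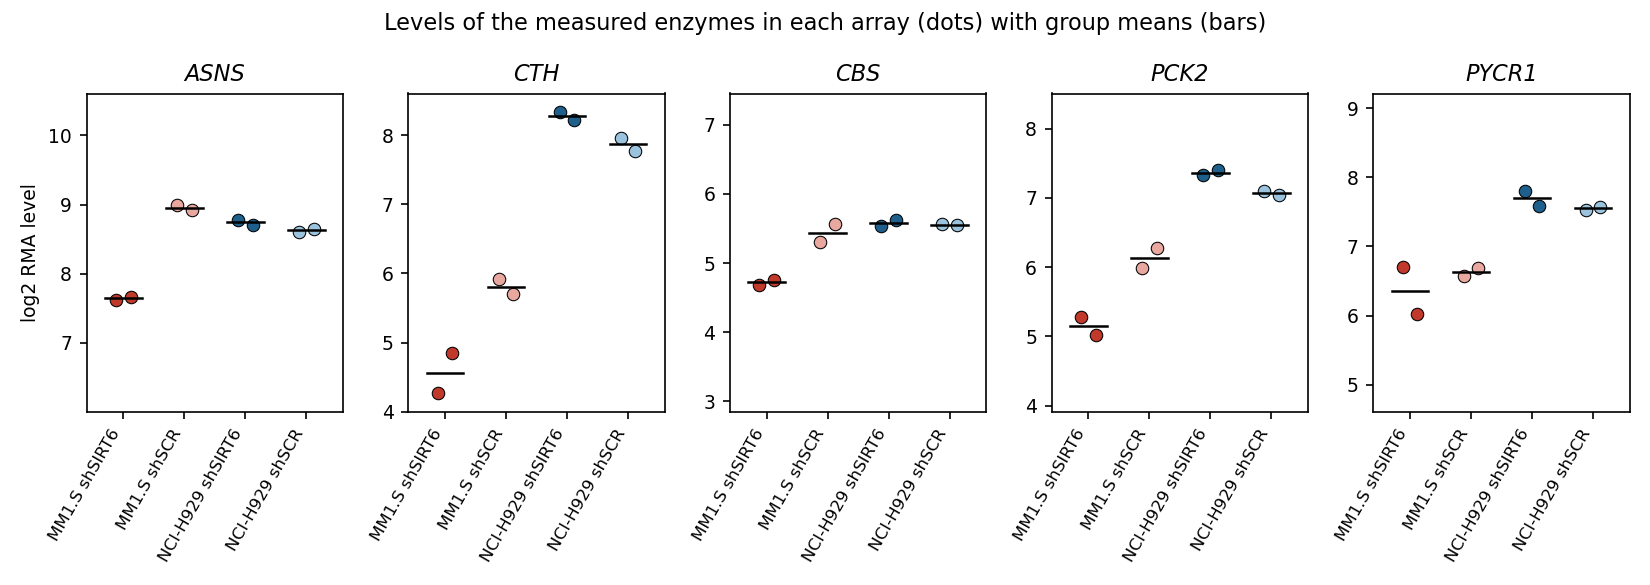
Log2 RMA level (vertical axis, all panels spanning the same range) of the 5 measured enzymes on each of the 8 arrays. Dots are arrays and bars are means of the 2 arrays of a group. The MM1.S shSIRT6 arrays are the lowest for ASNS, CTH, CBS and PCK2, while the PYCR1 arrays of MM1.S overlap.

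ASNS was read by transcript cluster 17060061. Its log2 level was 7.62 and 7.67 in MM1.S with shSIRT6, against 8.99 and 8.92 in MM1.S with shSCR. The arrays of each group lay within 0.1 of each other and the groups were more than 1 log2 unit apart. The log2 difference was -1.31 ± 0.092 (SE; 95% interval -1.53 to -1.09; limma, adjusted p = 0.00377), the fourth lowest p of all genes tested.

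The transsulfuration enzymes fell at both steps. CBS, which makes cystathionine (cluster 16926111), was at 4.68 and 4.76 with shSIRT6, against 5.30 and 5.56 with shSCR in MM1.S. The difference was -0.71 ± 0.11 (SE; adjusted p = 0.0398, limma). CTH, which releases cysteine from it (cluster 16666055), was at 4.27 and 4.85 with shSIRT6, against 5.92 and 5.70 with shSCR. The difference was -1.25 ± 0.19 (SE; adjusted p = 0.0366, limma). The constructs did not overlap for either gene, but the 2 shSIRT6 arrays of CTH were 0.58 apart, and without the lower one (replicate 1) the difference was -0.96. In MM1.S with shSIRT6 the means of CBS (4.72) and CTH (4.56) lay within the range of the T and NK cell markers there. Those ran from 3.885 for GNLY to 4.955 for NKG7. Background could not be judged, so part of these levels may be background. Some genome assemblies annotate a near-identical copy of CBS, and the array's probes were not checked against it, so the CBS level may include it.

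PCK2 (cluster 16782548) was at 5.28 and 5.02 with shSIRT6, against 5.99 and 6.28 with shSCR in MM1.S, again without overlap. The difference was -0.985 ± 0.14 (SE; 95% interval -1.30 to -0.67; adjusted p = 0.0262, limma). PYCR1, the last enzyme of proline synthesis (cluster 16850025), behaved less evenly. It was at 6.70 and 6.02 with shSIRT6, against 6.57 and 6.69 with shSCR, so that 1 shSIRT6 array lay above both shSCR arrays and 1 below them. Its difference of -0.27 ± 0.21 (SE; 95% interval -0.75 to 0.21) did not pass (adjusted p = 0.505), and without shSIRT6 replicate 2 it was 0.07.

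These calls rest on few arrays. Left out in turn, each of the 8 arrays ended the calls of CTH, CBS and PCK2, and the ASNS call was lost without shSCR replicate 1 (adjusted p = 0.0644) or shSIRT6 replicate 2 (adjusted p = 0.0612) of MM1.S, though the ASNS difference stayed between -1.35 and -1.23 under all 16 alternatives. With MM1.S fitted alone no enzyme passed (adjusted p = 0.0583 for ASNS and 0.133 to 0.147 for CTH, CBS and PCK2), although 4 had an unadjusted p below 0.05 there.

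In NCI-H929 none of the 5 enzymes was called with shSIRT6 (limma, 0 called and 0 at an unadjusted p below 0.05), where 0.0236% of all genes tested were. The unadjusted count was 2 with quantile or cyclic loess normalization, a variance trend or NCI-H929 fitted alone, with 0 called in each. The median difference of the 5 enzymes was 0.145 on the log2 scale, against -0.045 for all genes. ASNS was at 8.78 and 8.71 with shSIRT6, against 8.61 and 8.65 with shSCR, a difference of 0.115 ± 0.092 (SE; 95% interval -0.10 to 0.33; adjusted p = 0.596). CBS was at 5.54 and 5.62 with shSIRT6, against 5.56 and 5.55 with shSCR, a difference of 0.025 ± 0.11 (SE; interval -0.24 to 0.29). Of the 5 genes, CBS was the only one whose groups overlapped.

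CTH and PCK2 had the largest positive values of the 5 in NCI-H929. CTH was at 8.33 and 8.22 with shSIRT6, against 7.96 and 7.77 with shSCR, a difference of 0.41 ± 0.19 (SE; interval -0.04 to 0.86; adjusted p = 0.378, limma). PCK2 was at 7.33 and 7.40 with shSIRT6, against 7.10 and 7.04 with shSCR, a difference of 0.295 ± 0.14 (SE; interval -0.02 to 0.61; adjusted p = 0.371). PYCR1 was at 7.80 and 7.59 with shSIRT6, against 7.53 and 7.57 with shSCR, a difference of 0.145 ± 0.21 (SE; interval -0.34 to 0.63). Both shSIRT6 arrays lay above both shSCR arrays for 4 of the 5, as they did for 16.6% of all genes tested.

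**Figure D2:**
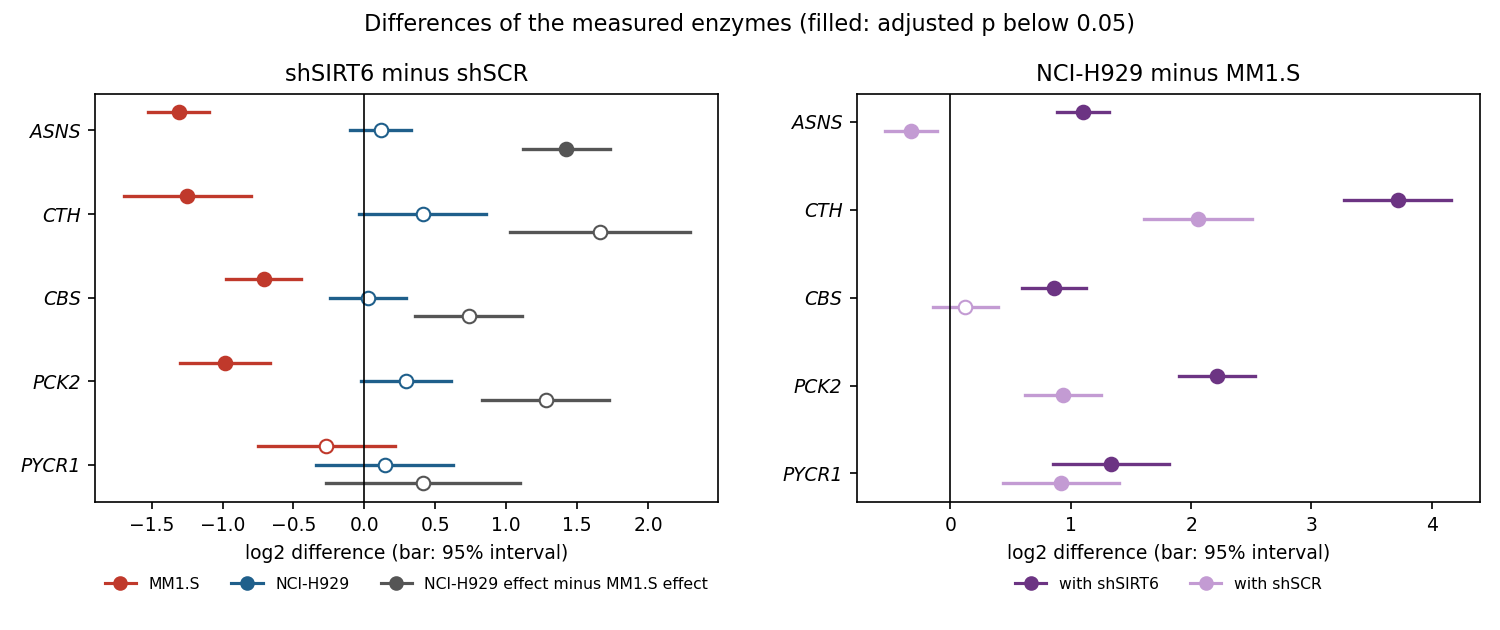
Log2 differences of the 5 measured enzymes (horizontal axes), with points at limma's estimate, bars for its 95% interval and filled points where the adjusted p was below 0.05. Left, shSIRT6 minus shSCR in MM1.S, in NCI-H929 and the difference of these effects; right, NCI-H929 minus MM1.S with each construct. In MM1.S 4 points are filled and left of 0, in NCI-H929 none is filled, and CTH has the widest gap between lines, 3.715 with shSIRT6.

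The effect of the hairpin differed between the lines for ASNS. NCI-H929 minus MM1.S, the effects differed by 1.425 ± 0.13 on the log2 scale (SE; limma, adjusted p = 0.0170), a comparison in which 0.204% of all genes tested were called. For CTH the difference was 1.66 ± 0.27 (adjusted p = 0.0830), for PCK2 1.28 ± 0.19 (adjusted p = 0.0712), for CBS 0.735 ± 0.16 (adjusted p = 0.157) and for PYCR1 0.415 ± 0.29 (adjusted p = 0.565), none of which passed. The first 3 of these had 95% intervals above 0 (1.03 to 2.29, 0.83 to 1.73 and 0.36 to 1.11). The ASNS call was lost when any 1 of the 8 arrays was left out (adjusted p from 0.0718 to 0.119), with the difference between 1.39 and 1.46. The effect in MM1.S and the difference between lines share the MM1.S arrays.

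The lines were also compared with each other under each construct. With shSIRT6 all 5 were called higher in NCI-H929 than in MM1.S, as were 18.4% of all genes tested. With shSCR 3 were called higher (CTH, PCK2 and PYCR1), as were 20% of all genes, and ASNS was called lower, as were 18.3%. The 2 gaps differ by exactly the difference of effects given above, so they are a description of the same arrays and no further test.

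CTH had the widest gap. With shSIRT6 it averaged 8.275 ± 0.078 in NCI-H929 and 4.56 ± 0.41 in MM1.S, and with shSCR 7.865 ± 0.13 in NCI-H929 and 5.81 ± 0.16 in MM1.S (log2 level, SD, n = 2 each). The gap was 3.715 ± 0.19 with shSIRT6 and 2.055 ± 0.19 with shSCR (SE; limma, adjusted p = 1.06e-05 and 0.000160). That of PCK2 was 2.215 ± 0.14 with shSIRT6 and 0.935 ± 0.14 with shSCR. PYCR1 was higher in NCI-H929 by 1.335 ± 0.21 with shSIRT6 and by 0.92 ± 0.21 with shSCR. The CTH mean in MM1.S with shSIRT6 lay within the range of T and NK cell markers there. It may be partly background, which could not be judged, so the size of the CTH gap with shSIRT6 is uncertain.

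ASNS and CBS separated the lines otherwise. CBS differed by 0.86 ± 0.11 with shSIRT6 (SE; limma, adjusted p = 0.000803), while with shSCR the difference of 0.125 ± 0.11 did not pass (adjusted p = 0.446). ASNS was higher in NCI-H929 by 1.10 ± 0.092 with shSIRT6 but lower there by a log2 difference of -0.325 ± 0.092 with shSCR (adjusted p = 0.0263). The call with shSCR was lost without any 1 of the 4 shSCR arrays (adjusted p from 0.0634 to 0.124). In ascending order the ASNS means were 7.645 in MM1.S with shSIRT6, 8.63 in NCI-H929 with shSCR, 8.745 in NCI-H929 with shSIRT6 and 8.955 in MM1.S with shSCR; the NCI-H929 groups, neighbours in that order, did not differ beyond the test. For CTH, CBS, PCK2 and PYCR1 the order of means was MM1.S with shSIRT6, MM1.S with shSCR, NCI-H929 with shSCR and NCI-H929 with shSIRT6. For CBS these means were 4.72, 5.43, 5.555 and 5.58, and its NCI-H929 groups overlapped, as did the MM1.S groups of PYCR1.

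Both MM1.S shSIRT6 arrays lay below the other 6 arrays for ASNS, CTH, CBS and PCK2, 4 of 5, a pattern that 10.6% of all genes tested had. Profiles were also compared around each gene's own mean in a line. The root mean square distance over the 8 arrays was 0.161 for CBS and PCK2, 0.182 for ASNS and PCK2 and 0.184 for ASNS and CTH. It was 0.233 for ASNS and CBS, 0.272 for CTH and PCK2 and 0.299 for CTH and CBS. The distances of PYCR1, from 0.262 (CBS) and 0.292 (PCK2) to 0.415 (ASNS) and 0.489 (CTH), overlapped with this range. The points share their arrays and the construct, so these distances describe the pattern and do not test it.

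**Figure D3:**
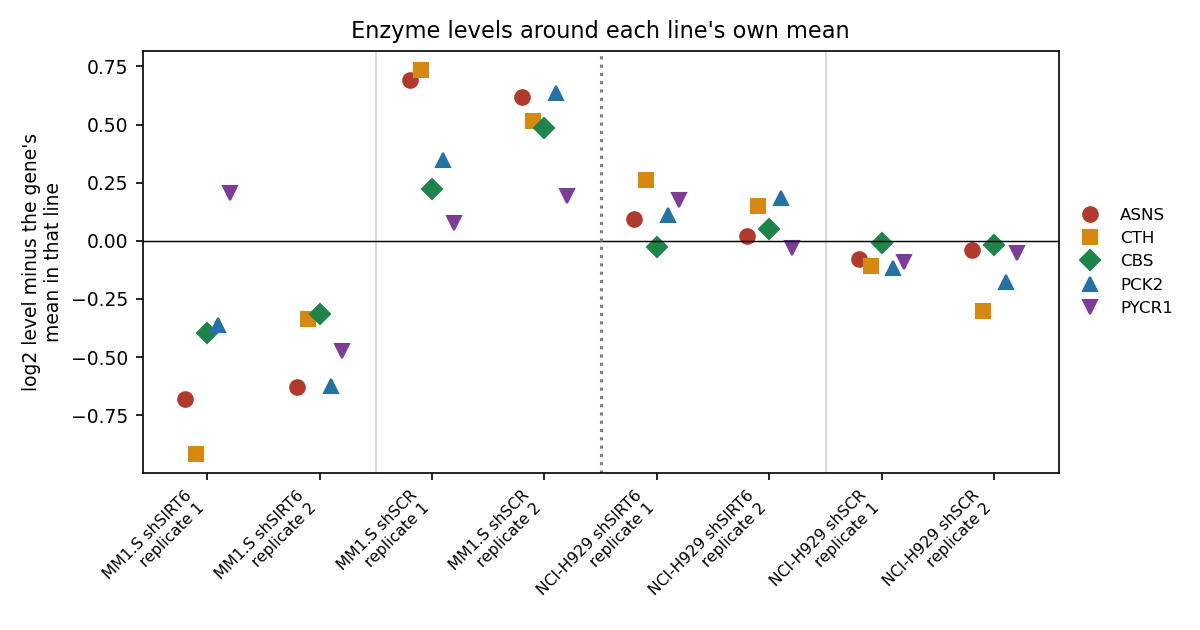
Log2 level of each measured enzyme minus its own mean in that line (vertical axis), on each of the 8 arrays (horizontal axis), with 1 symbol per gene. In MM1.S the shSIRT6 arrays lie below 0 for all genes but PYCR1 in replicate 1, and in NCI-H929 the deviations run from -0.30 to 0.26, both for CTH.

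By the same distance the genes outside the list most like ASNS were ALOX5AP (0.0625), SARS1 (0.0654), TXNIP (0.0765), CALCRL (0.0786), LINC-PINT (0.102) and DNAAF4-CCPG1 (0.105). ALOX5AP serves leukotriene synthesis, SARS1 charges serine tRNA, TXNIP binds thioredoxin and CALCRL is a receptor for calcitonin-family peptides. LINC-PINT is a long noncoding RNA and DNAAF4-CCPG1 a readthrough transcript. All 6 fell in MM1.S with shSIRT6 (log2 difference from -1.40 for ALOX5AP to -1.14 for DNAAF4-CCPG1; limma, adjusted p from 0.00377 to 0.0152), which follows from how they were chosen.

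The companion list holds 70 other genes of the same pathways, of which 31 have a named row and passed the filter. None of its 17 amino acid transporters is among them, so uptake is not covered. In MM1.S with shSIRT6, 2 of the 31 were called, both lower, against 1.12% of all genes called lower, and the median was -0.03. In NCI-H929 0 were called (limma; 5 had an unadjusted p below 0.05) and the median was -0.09. Under alternatives added after the data were seen, the count in MM1.S ran from 0 to 5. It was 5 with a variance trend, 3 with the stricter filter, 1 with quantile normalization, and 0 without the filter, with the replicate block, with MM1.S alone or with any 1 array left out (6 to 8 at an unadjusted p below 0.05 in these settings with 0).

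**Figure D4:**
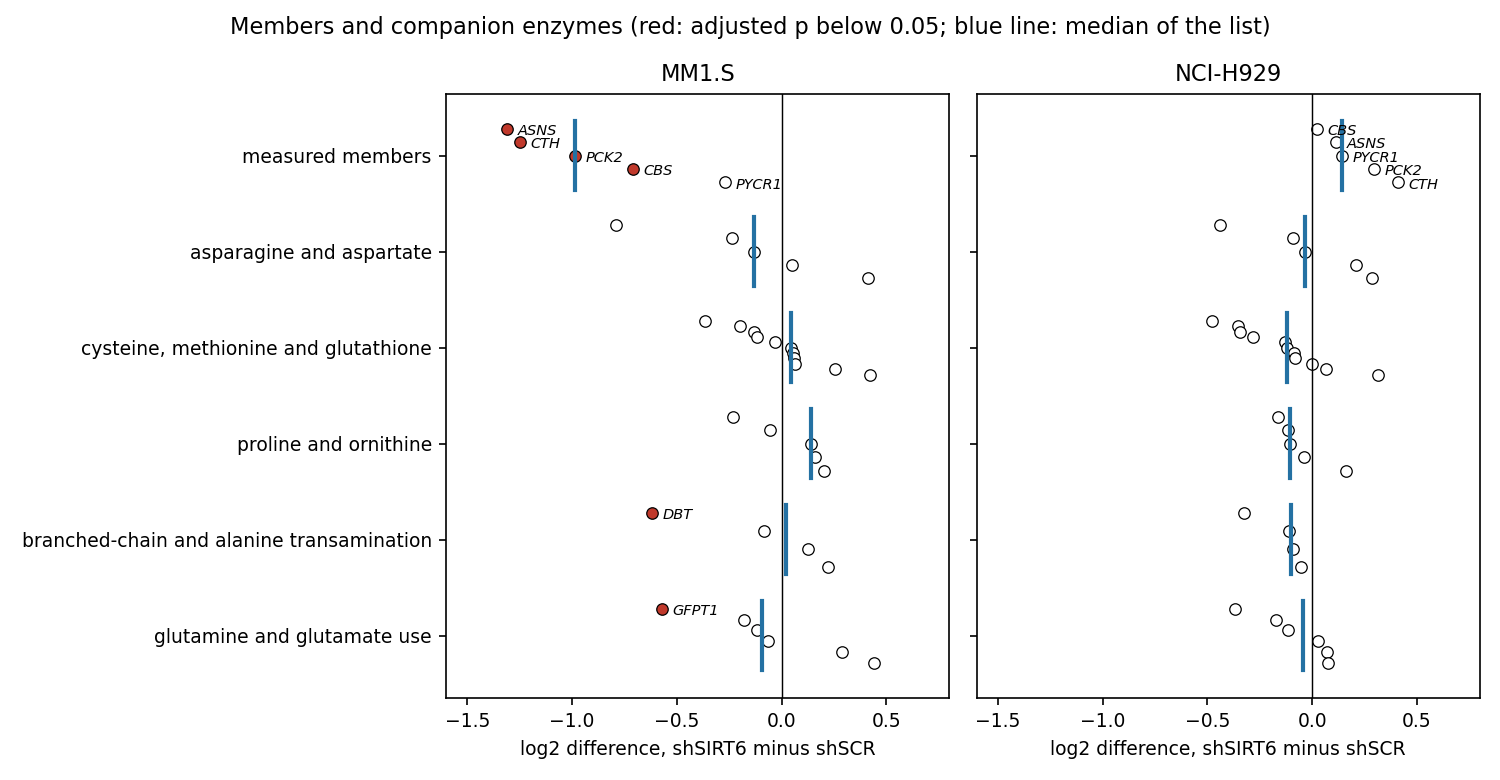
Log2 difference, shSIRT6 minus shSCR (horizontal axes), of the 5 measured enzymes and of 31 companion enzymes by role, in MM1.S (left) and NCI-H929 (right). Each point is a gene, red where the adjusted p was below 0.05, and blue lines mark list medians. In MM1.S the median of the measured enzymes is -0.985, and those of the companion groups lie between -0.13 and 0.14.

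Among genes of asparagine and aspartate, 0 of 5 were called in MM1.S (limma; 2 had an unadjusted p below 0.05). ASS1 (argininosuccinate synthase, which uses aspartate) had the lowest p. It was at 5.44 and 5.67 with shSIRT6, against 6.44 and 6.25 with shSCR in MM1.S, and its difference of -0.79 ± 0.15 (SE) narrowly missed the threshold (adjusted p = 0.0537); it is named after its values were seen. Of 11 genes of cysteine, methionine and glutathione 0 were called, with a median of 0.045 and a range from -0.365 to 0.42 (2 had an unadjusted p below 0.05). AHCY, which supplies the homocysteine that CBS uses, was at 6.73 and 6.97 with shSIRT6, against 6.88 and 6.88 with shSCR; it too is named after its values were seen. Of 5 genes of proline and ornithine 0 were called and 0 had an unadjusted p below 0.05, with a range from -0.23 to 0.20.

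Of 4 genes of branched-chain and alanine transamination 1 fell. DBT, a subunit of the complex that breaks down branched-chain keto acids, was at 6.65 and 6.74 with shSIRT6, against 7.34 and 7.29 with shSCR in MM1.S, a difference of -0.62 ± 0.10 (SE; limma, adjusted p = 0.0452). Of 6 genes of glutamine and glutamate use 1 fell. GFPT1, which uses glutamine to start hexosamine synthesis, was at 9.97 and 9.85 with shSIRT6, against 10.49 and 10.47 with shSCR, a difference of -0.57 ± 0.094 (SE; adjusted p = 0.0439). For both genes the shSIRT6 arrays lay below both shSCR arrays. The DBT call was lost in 12 of 16 alternatives and that of GFPT1 in 11 of 16. In NCI-H929 DBT was at -0.11 and GFPT1 at 0.075 (log2 difference), neither called.

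Partner enzymes that catalyse the reaction of a listed enzyme were measured in 3 cases. PCK1, the cytosolic partner of PCK2, was at 3.25 and 3.22 with shSIRT6, against 3.09 and 2.80 with shSCR in MM1.S, close to the filter level of 3.045. Its difference was 0.29 ± 0.17 (SE; adjusted p = 0.388, limma), where that of PCK2 was -0.985. GPT, the cytosolic partner of GPT2, had 0.22 ± 0.19 and PYCR3, a relative of PYCR1, 0.16 ± 0.17 in MM1.S, and neither passed. In NCI-H929 the log2 differences of PCK1, GPT and PYCR3 were -0.115, -0.055 and -0.115, none called. GOT2 and BCAT2 have no row with their name here.

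ATF4, the regulator named above, was at 9.64 and 9.63 with shSIRT6, against 9.89 and 9.83 with shSCR in MM1.S. The groups did not overlap, but the difference of -0.225 ± 0.091 (SE) did not pass (limma, adjusted p = 0.233). Of 16 alternatives 1, the variance trend, called it (adjusted p = 0.0228), and over the others the adjusted p ran from 0.176 to 0.576. In NCI-H929 it was at 10.00 and 9.94 with shSIRT6, against 10.05 and 10.10 with shSCR, a difference of -0.105 ± 0.091 (adjusted p = 0.621). The array reads RNA, so ATF4 protein was not measured. ATF4 is known to be controlled largely in translation, so its RNA level does not give its protein level.

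Markers of other cell types were looked at beside these results. Of 6 myeloid markers 5 have a named row, and their mean log2 level was 3.74 to 3.91 with shSIRT6, against 3.49 to 3.69 with shSCR in MM1.S. In NCI-H929 it was 3.76 to 3.84 with shSIRT6, against 3.64 to 3.80 with shSCR. Of 8 T and NK cell markers 4 have one, and their mean was 4.47 to 4.49 with shSIRT6, against 4.445 to 4.515 with shSCR in MM1.S, and 4.57 to 4.635 with shSIRT6, against 4.285 to 4.49 with shSCR in NCI-H929. Both stromal markers with a row, of 6, lay under the filter level. Between constructs 0 of the T, NK and myeloid markers tested were called in either line (limma; 1 myeloid marker had an unadjusted p below 0.05 in MM1.S, and 0 others did). Of the plasma cell markers 1, SDC1, was called higher with shSIRT6 in MM1.S (0.52; limma, adjusted p = 0.0461), as were 0.204% of all genes tested, and 0 in NCI-H929. In MM1.S 2 had an unadjusted p below 0.05, SDC1 and IRF4, and in NCI-H929 0 did. IRF4 was lower with shSIRT6 in MM1.S and not called (-0.325, adjusted p = 0.121). A log2 array level has no true 0, and the part of other cells in the results was not tested.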

How the data were processed

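RNA of 8 samples (2 lines, 2 constructs, 2 arrays each) was measured on gene arrays. The deposited values are log2 levels per transcript cluster, made by the authors with RMA and the Transcriptome Analysis Console on build hg19, per the submitters' processing notes; no source used here gives the RMA variant or software versions, and scanner intensities were not used, so background could not be judged. Of 48226 rows 16098 carry 1 gene symbol, 0 several and 32128 none. Groups and replicate numbers came from the titles.

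The row with the highest mean per gene was kept, and a gene was tested if that mean passed 3.045, the 30th percentile of all rows. Group means were estimated over the 8 arrays with limma 3.58.1 (R 4.3.3; 4 residual and 3.43 prior degrees of freedom), with Benjamini-Hochberg adjustment over 12734 genes and calls below 0.05. The code was tested on simulated data. Exact permutation of 2 arrays against 2 cannot give a two-sided p below 0.333, so limma alone was used for single genes. The number of arrays limits the precision. Replicate numbers were not taken as pairs. Alternatives were no filter, a stricter filter (50th percentile), quantile and cyclic loess normalization, the mean of rows, a variance trend, a replicate block, each line alone and leaving out each array (with a lone array assumed to vary like the other groups). The enzymes, lists and the rule for named genes (all listed enzymes, called companions, partners, SIRT6, ATF4, the 6 genes nearest to ASNS) were chosen with earlier results of these data known. Protein sequences were not used here.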

Additional observations from a re-analysis of the deposited data

Results flagged for a closer look

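Among the measured enzymes, ASNS stood out because the hairpin's effect differed between the lines in a test of the difference itself. NCI-H929 minus MM1.S, the log2 effects differed by 1.425 (limma, adjusted p = 0.0170), with the MM1.S arrays lower and the NCI-H929 arrays slightly higher with shSIRT6, in 2 of 2 arrays each. Over 15 alternatives the difference ran from 1.39 to 1.47 and the call was kept in 6. Such a difference was not particular to ASNS. Of the genes picked for likeness to it, ALOX5AP, SARS1, TXNIP, CALCRL and DNAAF4-CCPG1 were called too (1.03 to 1.53; limma, adjusted p from 0.0170 to 0.0412). LINC-PINT was not (1.16, adjusted p = 0.0712).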

How the results depend on the processing

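The directions of ASNS, CTH, CBS and PCK2 in MM1.S were the same under all 16 alternatives, and their calls remained with no filter, the stricter filter, quantile and cyclic loess normalization, the mean of rows and a variance trend. The replicate block left 0 of 4 calls in MM1.S (ASNS adjusted p = 0.0751) and 0 for the difference between lines, with 0 of all genes called in MM1.S, NCI-H929 or the difference (limma; 2444, 1806 and 1704 at an unadjusted p below 0.05). Same-numbered arrays showed no shared deviation across the genes tested (correlation of deviations 0.0767 in MM1.S and -0.00108 in NCI-H929). That cannot show whether they were handled together, and the labels do not say. The block also leaves fewer degrees of freedom, and which of these lies behind the lost calls was not tested. Each line alone gave 0 of the 5 enzymes in both lines and 0 of all genes (2275 for MM1.S, 1747 for NCI-H929 at an unadjusted p below 0.05). Over all genes in MM1.S, against 169, the stricter filter called 314 and the variance trend 953. In NCI-H929, against 3, no filter, quantile, cyclic loess and the mean of rows each called 0 (1471 to 1944 at an unadjusted p below 0.05) and the trend 194. For the difference, against 26, the trend called 430, and 3 enzymes in place of 1. The cause of these shifts was not tested. With arrays left out in turn, enzymes called ran from 0 to 1 in MM1.S, stayed at 0 for the difference (at least 4 with an unadjusted p below 0.05 each time) and ran from 2 to 4 between lines with shSCR (2 without MM1.S shSCR replicate 1); genes called ran from 0 to 84 in MM1.S (0 without shSCR replicate 1 or shSIRT6 replicate 2, with 1477 and 1877 at an unadjusted p below 0.05), were 0 in NCI-H929 (1184 to 1820) and ran from 2 to 6 for the difference. Uncalled differences that changed sign did so only with an array left out: in MM1.S PYCR1 ran from -0.61 to 0.07, GPT from -0.065 to 0.505 and PYCR3 from -0.045 to 0.365 (-0.035 without shSIRT6 replicate 1); in NCI-H929 CBS ran from -0.015 to 0.065, GPT from -0.215 to 0.105 and PCK1 from -0.32 to 0.09 (0.015 without shSIRT6 replicate 2); and CBS between lines with shSCR from -0.005 to 0.255.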
